A study of Mus musculus with 9 samples.

Results

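Laminins are the secreted cross-shaped proteins that basement membranes are built on, and integrins are the cell-surface receptors that bind laminins and other matrix or cell-surface ligands. The genes described here were all rows of the deposited gene table whose symbol is that of a laminin chain or an integrin subunit. The rule finds 37 genes among the 55401 of the table, of which 11 encode laminin chains, 18 encode integrin alpha subunits and 8 encode integrin beta subunits. RNA was sequenced from mouse testis in 9 libraries, 3 in each of 3 groups, and the title of the series gives its question as the effect of exosomes from different sources on the testis. All the mice had been given busulfan, an alkylating agent used to empty the testis of germ cells, so no untreated testis stands beside them. The BP group (replicates 5, 6 and 7) then received PBS. The BE group (replicates 6, 7 and 8) received blood exosomes, small vesicles released by cells, taken from wild-type mice. The BdE group (replicates 5, 6 and 7) received exosomes from mice whose intestinal microbiota was out of balance. No strain, age, dose or time after injection is given in the labels, and nothing in them ties a replicate to an animal of its own. The p-values therefore cover the spread among these libraries, which may be technical.

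A laminin is a trimer of 1 alpha, 1 beta and 1 gamma chain, and the alpha chain carries most of the sites that receptors bind. Trimers polymerise on the cell surface, where integrins and dystroglycan hold them, and nidogens link the laminin network to that of type IV collagen. In the testis such a sheet surrounds each seminiferous tubule, between Sertoli cells and the peritubular myoid cells that encircle it, and other basement membranes surround blood vessels. An integrin is a pair of 1 alpha and 1 beta subunit, and the pair decides the ligand: several alpha subunits joined to the beta subunit encoded by Itgb1 bind laminin, whereas those joined to the product of Itgb2 are found on leukocytes.

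Library totals lay between 57923652 and 70103125 counts, so that a gene with a count of 0 could still hold up to 3 counts, or 0.0428 to 0.0518 CPM. That floor covers counting error only. Sox9, a transcription factor of Sertoli cells, stood at 32.3 to 40.2 FPKM (the authors' level, which allows for gene length and library total) in the 9 libraries, and 5 photoreceptor genes, checked because the extraction text names retina, were each under 1 FPKM in every library. One BE library stood apart from the others of its group. BE 6 lay within the range of the 3 BP libraries for 18 of the 22 tested laminin and integrin genes, against 48.8% of all 14570 tested genes, while BE 7 and BE 8 each lay within that range for 3 of the 22, against 21% and 24.2% of all tested genes. Mitochondrial genes held 7.1 to 8.01% of the counts in BP and 7.19% in BE 6, but 14.2 to 14.5% in BE 8 and BE 7 and 11.8 to 13.4% in BdE. The rank correlation across genes between gene length and a gene's level relative to its mean over libraries ran from 0.178 to 0.245 for BP, stood at 0.238 for BE 6, and was -0.241 to -0.0915 in the other 5 libraries. Laminin and integrin genes are long, with a median of 7015 exonic bases over the 37 and 6891 over the 22 tested. The median over all tested genes was 3617, so results are also given after a correction for the trend with length.

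Of the 37 genes, 22 reached 1 FPKM in at least 3 of the 9 libraries and were tested: 9 laminin, 9 integrin alpha and 4 integrin beta genes. Lamb2, a laminin beta chain known from the kidney glomerulus and the neuromuscular junction, had the highest mean level over the 9 libraries (70.2 FPKM). Itgb1, the partner of most alpha subunits, followed at 51.4 FPKM and Itgb5, a partner of the Itgav product, at 32.7 FPKM. Lamc3, a laminin gamma chain, and Lama1, the alpha chain of the laminin of early embryonic and many epithelial basement membranes, came next at 26.0 and 22.6 FPKM. The other 17 tested genes had means from 1.2 FPKM (Itga11, a collagen receptor subunit) to 8.63 FPKM (Lamc1, the gamma chain of most trimers). Most of the summed laminin level came from 1 alpha, 1 beta and 1 gamma chain: in BP, Lama1 held 60.9% ± 2.8 of the summed FPKM of the 5 alpha chains, Lamb2 86.5% ± 0.484 of the 3 beta chains and Lamc3 77.4% ± 1.36 of the sum of Lamc1 and Lamc3 (SD, n = 3).

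**Figure D1:**
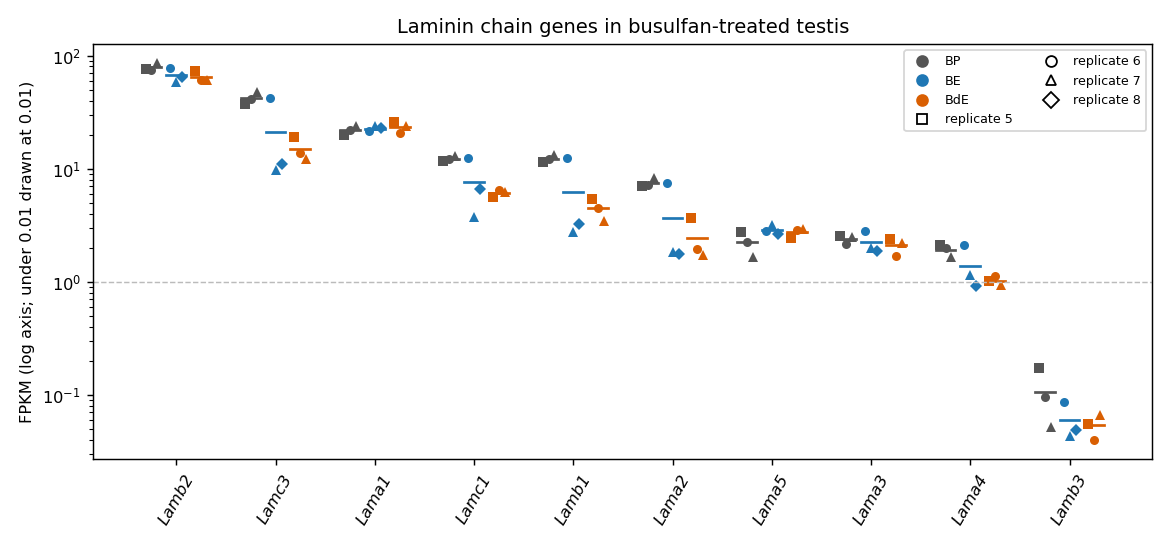
FPKM of 10 laminin chain genes on a log axis, in order of mean level, with a point for each library, the replicate number as the shape, a bar at the mean of each group (n = 3) and a dashed line at 1 FPKM. For Lamc3, Lamb1, Lama2, Lamc1, Lama4 and Lamb2 the BP points and BE 6 lie above BE 7, BE 8 and the 3 BdE points. For Lamb2 the gap is small, with BP 6 at 75.0 and BdE 5 at 72.6 FPKM. For Lama1, Lama3, Lama5 and Lamb3 the points do not separate in this way.

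In the model of all 9 libraries, no laminin or integrin gene differed between any pair of groups at an adjusted p under 0.05 (edgeR quasi-likelihood test, Benjamini-Hochberg over 14570 genes). Few genes of any kind did: 2 for BE against BP (0.0137%), 1 for BdE against BP (0.00686%) and 1 for BdE against BE (0.00686%). At an unadjusted p under 0.05 the 22 genes gave 4, 10 and 1 in these comparisons, where all genes gave 1865, 3509 and 340. The smallest adjusted p of the 22 was 0.379, 0.19 and 0.999. DESeq2 on the same 9 libraries called 2 of the 22, Itgam and Itgb1, lower in BdE than in BP (389 of all genes, 2.67%), and 0 in the other comparisons, where it called 60 and 25 genes of any kind. The BE libraries share in the spread that this model uses for every comparison.

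With the 6 BP and BdE libraries alone, 13 of the 22 tested genes were lower in BdE than in BP and 0 were higher, against 11.9% of all tested genes lower and 9.2% higher (edgeR, adjusted p under 0.05). This smaller model was chosen with results of these data known. By class, 5 of 9 laminin genes fell, 4 of 9 integrin alpha genes and 4 of 4 integrin beta genes, with median log2 fold changes of -0.84, -0.35 and -0.64 against 0.01 over all tested genes. All 3 BdE libraries lay below all 3 BP libraries in FPKM for 15 of the 22, where 28.2% of all tested genes did so. With the gene length correction 10 of the 22 were lower and 0 higher (9.66% of all tested genes lower), and the 10 were all among the 13. When each of the 6 libraries was left out in turn, 7 to 11 of the 22 were called, each time from among the 13, and the counts were 8 without BP 5, 7 without BP 6, 8 without BP 7 and 7 without BdE 7. Lama4, Lamb1, Lamc1, Lamc3, Itgam, Itgb1 and Itgb2 were lower in all 6 of these fits. In bulk tissue, fewer cells of a type and less RNA per cell cannot be told apart.

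Among the laminin alpha chains, Lama2 was lower in BdE and Lama1 was not. Lama2 encodes the alpha chain of muscle and nerve basement membranes, whose loss causes a congenital muscular dystrophy. Its level was 7.02, 7.21 and 8.18 FPKM in BP 5, 6 and 7, 7.43, 1.82 and 1.74 in BE 6, 7 and 8, and 3.62, 1.94 and 1.72 in BdE 5, 6 and 7. BE 6 sat with BP, BdE 5 was the highest of the other 5 libraries, and BP and BdE did not overlap. The 6-library log2 fold change, BdE minus BP, was -1.55 ± 0.29 (SE; 2.93-fold lower; edgeR adjusted p = 0.0171). Lama2 lost its call without BP 5, BP 6, BP 7 or BdE 7.

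Lama1 stood at 19.7, 21.8 and 24.0 FPKM in BP, 21.3, 23.8 and 22.8 in BE, and 26.0, 20.8 and 23.6 in BdE. The groups overlapped throughout, and its log2 fold change was 0.18 ± 0.12 (SE; edgeR adjusted p = 0.324). Lama4, the alpha chain of vessel walls and other mesenchymal basement membranes, was at 2.1, 1.98 and 1.66 FPKM in BP, 2.1, 1.14 and 0.917 in BE, and 1.01, 1.11 and 0.926 in BdE. All BdE values were below all BP values, with a log2 fold change of -0.84 ± 0.11 (SE; edgeR adjusted p = 0.00967). Lama3, the alpha chain of the epidermal laminin, ranged from 1.69 to 2.82 FPKM and Lama5, the broad alpha chain of adult epithelia and vessels, from 1.65 to 3.17 FPKM over the 9 libraries. Neither was called in the 6 libraries, and their groups overlapped.

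Of the beta chains, Lamb1 was lower in BdE and Lamb2 did not pass the test. Lamb1, the beta chain of most early trimers, was measured at 11.4, 12.1 and 13.1 FPKM in BP, 12.5, 2.74 and 3.23 in BE, and 5.39, 4.51 and 3.43 in BdE. The BP libraries and BE 6 formed 1 narrow band, and the highest of the others was BdE 5. Lamb1 was 2.61-fold lower in BdE (log2 fold change -1.38 ± 0.17 SE, edgeR adjusted p = 0.00776). Lamb2 stood at 76.3, 75.0 and 86.1 FPKM in BP, 77.5, 57.9 and 64.7 in BE, and 72.6, 60.7 and 61.3 in BdE. Its BdE values also lay below its BP values, but BdE 5 was close to BP 6, and the log2 fold change of -0.21 ± 0.10 (SE) did not pass the test (edgeR adjusted p = 0.185).

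The promoters of this pair and of Lama2 are shown because their genes were lower (Lamb1, Lama2) or did not pass the test (Lamb2). Each runs from 250 bases before to 50 after the start of the RefSeq transcript on GRCm38.p6, and capitals mark matches, on either strand, to any of 5 short motifs. These are the GC box, spelled GGGCGG, the box known by its letters CCAAT, the TATA box, searched for as TATAAA, the site of the factor AP-1, which was written TGACTCA, and GAGGAA, the core of sites for ETS factors such as PU.1. Lamb1 is at chr12:31265043-31265342 on the plus strand, Lama2 at chr10:27616893-27617192 on the minus strand and Lamb2 at chr9:108479612-108479911 on the plus strand.
Lamb1: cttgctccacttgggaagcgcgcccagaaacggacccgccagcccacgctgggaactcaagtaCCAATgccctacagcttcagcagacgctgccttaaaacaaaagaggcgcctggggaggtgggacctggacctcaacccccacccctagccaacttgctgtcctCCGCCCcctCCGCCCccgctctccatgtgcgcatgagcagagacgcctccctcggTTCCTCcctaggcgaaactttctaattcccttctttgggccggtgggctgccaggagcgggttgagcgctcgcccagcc
Lama2: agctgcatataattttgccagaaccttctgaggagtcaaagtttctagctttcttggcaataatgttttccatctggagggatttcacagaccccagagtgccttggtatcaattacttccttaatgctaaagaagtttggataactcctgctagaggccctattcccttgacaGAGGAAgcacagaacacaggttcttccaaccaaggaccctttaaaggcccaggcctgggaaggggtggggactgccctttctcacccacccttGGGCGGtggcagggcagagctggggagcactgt
Lamb2: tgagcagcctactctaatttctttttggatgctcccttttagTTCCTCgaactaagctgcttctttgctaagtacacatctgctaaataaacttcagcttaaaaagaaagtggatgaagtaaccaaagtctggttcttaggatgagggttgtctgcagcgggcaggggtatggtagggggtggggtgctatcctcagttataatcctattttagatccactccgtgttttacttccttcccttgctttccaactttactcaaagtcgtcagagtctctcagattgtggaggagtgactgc

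The Lamb1 window held 2 GC boxes, 1 CCAAT box, 1 GAGGAA and 18 CpG pairs, and the Lama2 window 1 GC box, 1 GAGGAA and 1 CpG. The Lamb2 window held 1 GAGGAA, no match to the other 4 motifs and 4 CpG pairs. Over 32851 promoter windows of the same length, 35.7% held a GC box, 37.4% a CCAAT box and 28.3% a GAGGAA, and the median was 7 CpG pairs. RefSeq windows were matched for 23 of the 37 genes, some with more than 1 start. Only 7 of the 13 genes lower in BdE had a window, with 8 windows among them, and tested genes without a call had 6 windows. A GC box was present in 7 of the 8 and in 3 of the 6. GAGGAA was present in 5 of the 8 and in 5 of the 6, and a CCAAT box in 2 and 1. This is a description of the letters only.

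Both gamma chains of the tested set were lower in BdE. Lamc1 had levels of 11.7, 12.2 and 12.8 FPKM in BP, 12.3, 3.75 and 6.53 in BE, and 5.61, 6.51 and 6.18 in BdE. Its log2 fold change was -0.93 ± 0.09 (SE; 1.9-fold lower; edgeR adjusted p = 0.00534), and BE 7 was the lowest library of all 9. Lamc3 had levels of 37.5, 41.1 and 47.7 FPKM in BP, 42.5, 9.66 and 11 in BE, and 19.2, 13.7 and 12.1 in BdE. BdE 5 was again the highest of the BdE libraries and still below the lowest BP library. Lamc3 was 2.67-fold lower in BdE (log2 fold change -1.42 ± 0.19 SE, edgeR adjusted p = 0.0096), the largest fall in FPKM of any laminin gene: the summed level of Lamc1 and Lamc3 went from 54.3 ± 5.75 FPKM in BP to 21.1 ± 3.38 in BdE (SD, n = 3), while the summed alpha chain level was 35.8 ± 1.97 and 31.7 ± 3.52 FPKM and the summed beta chain level 91.4 ± 6.77 and 69.4 ± 7.52 FPKM.

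Ratios of chains within a library, chosen after the levels were seen and given with no test, do not depend on how a library total is scaled. Lama2 was 0.356, 0.331 and 0.341 of Lama1 in BP, 0.348 in BE 6, 0.0764 in both BE 7 and BE 8, and 0.139, 0.0933 and 0.073 in BdE. Lamb1 was 0.149, 0.162 and 0.152 of Lamb2 in BP, 0.162 in BE 6, 0.0474 and 0.0499 in BE 7 and BE 8, and 0.0743, 0.0743 and 0.0559 in BdE. In both pairs BE 6 was within or at the edge of the BP values and every other BE and BdE library was below them. The gamma chains did not separate in this way. The ratio of Lamc3 to Lamc1 was 3.19, 3.37 and 3.72 in BP, 3.45, 2.58 and 1.68 in BE, and 3.43, 2.1 and 1.95 in BdE. The share of Lama1 in the summed alpha chain FPKM was 60.9% ± 2.8 in BP and 73.9% ± 1.1 in BdE, and that of Lama2 was 20.8% ± 0.619 and 7.51% ± 2.44 (SD, n = 3). Lama2 has 16338 exonic bases and Lama1 9681, and Lamb1 has 9917 and Lamb2 6082, so a trend with length touches these ratios.

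**Figure D2:**
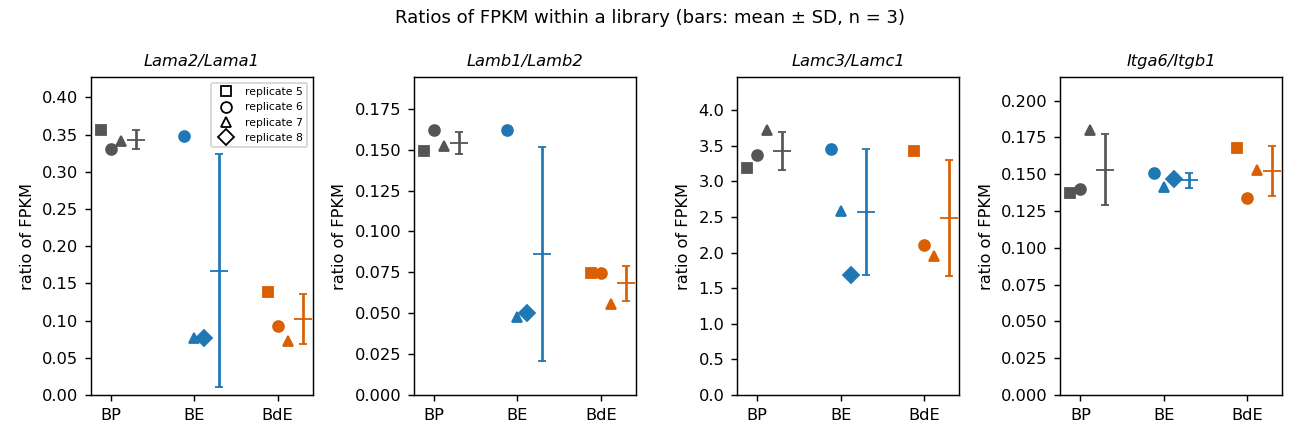
Ratios of the FPKM of 2 genes within each library, with a point per library, the replicate number as the shape, and the mean ± SD of each group (n = 3). The ratios of Lama2 to Lama1 and of Lamb1 to Lamb2 are lower in BE 7, BE 8 and the 3 BdE libraries than in BP and BE 6. That of Lamc3 to Lamc1 does not separate them, with BdE 5 at 3.43 within the BP values of 3.19 to 3.72. That of Itga6 to Itgb1 lies between 0.134 and 0.18 in all 9.

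Every integrin beta subunit gene that was tested was lower in BdE. Itgb1 was measured at 65.1, 65.6 and 63.9 FPKM in BP, 64.2, 37.9 and 42.4 in BE, and 42.2, 41.5 and 40.0 in BdE, from 12245 to 21207 counts. The spread within BP and within BdE was small beside the gap between them, and BE 6 again lay with BP. Its log2 fold change was -0.58 ± 0.05 (SE; 1.49-fold lower; edgeR adjusted p = 0.00445). Itgb5, whose product pairs with the alphaV subunit to bind vitronectin, had 36.9, 41.8 and 44.2 FPKM in BP, 41.7, 22.8 and 22.7 in BE, and 29.9, 26.9 and 27.5 in BdE. The BdE values lay between the BP values and those of BE 7 and BE 8, and the log2 fold change against BP was -0.47 ± 0.10 (SE; edgeR adjusted p = 0.0222), a call lost without BP 6, BP 7 or BdE 7. Itgb3, also a partner of alphaV and the beta subunit of the platelet fibrinogen receptor, ranged from 1.78 to 2.38 FPKM in BP and from 1.06 to 1.37 in BdE (log2 fold change -0.70 ± 0.16 SE, edgeR adjusted p = 0.032). Of the 6 fits that leave out a library, Itgb3 passed in 1, that without BdE 6.

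Of the alpha subunits that bind laminin, Itga6 was highest. Its product pairs with that of Itgb1 or Itgb4 and is a known surface marker of spermatogonia, among other cells. It was at 8.91, 9.19 and 11.5 FPKM in BP, 9.67, 5.33 and 6.22 in BE, and 7.1, 5.57 and 6.12 in BdE. The groups BP and BdE did not overlap, with a log2 fold change of -0.58 ± 0.15 (SE; edgeR adjusted p = 0.0384). The ratio of its FPKM to that of Itgb1 varied little, and averaged 0.153 ± 0.0242 over BP, 0.146 ± 0.00511 over BE and 0.152 ± 0.017 over BdE (SD, n = 3). Itga3, a laminin receptor subunit of skin, kidney and lung, was at 3.49 to 4.05 FPKM in BP and 2.7 to 2.91 in BdE (log2 fold change -0.35 ± 0.09 SE, edgeR adjusted p = 0.0418). Both calls depend on the processing: with the gene length correction the adjusted p was 0.0678 for Itga6 and 0.0895 for Itga3, and of the 6 fits that leave out a library Itga3 passed in 0 and Itga6 in 1, that without BdE 5. Itga7, the laminin receptor subunit of muscle, ranged from 1.75 to 1.9 FPKM in BP and from 1.23 to 1.48 in BdE. All its BdE values lay below its BP values, and it missed the threshold in edgeR (adjusted p = 0.0582) and passed in DESeq2 on the 6 libraries (adjusted p = 0.015). That DESeq2 fit called 4479 genes of any kind, where edgeR called 3078.

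**Figure D3:**
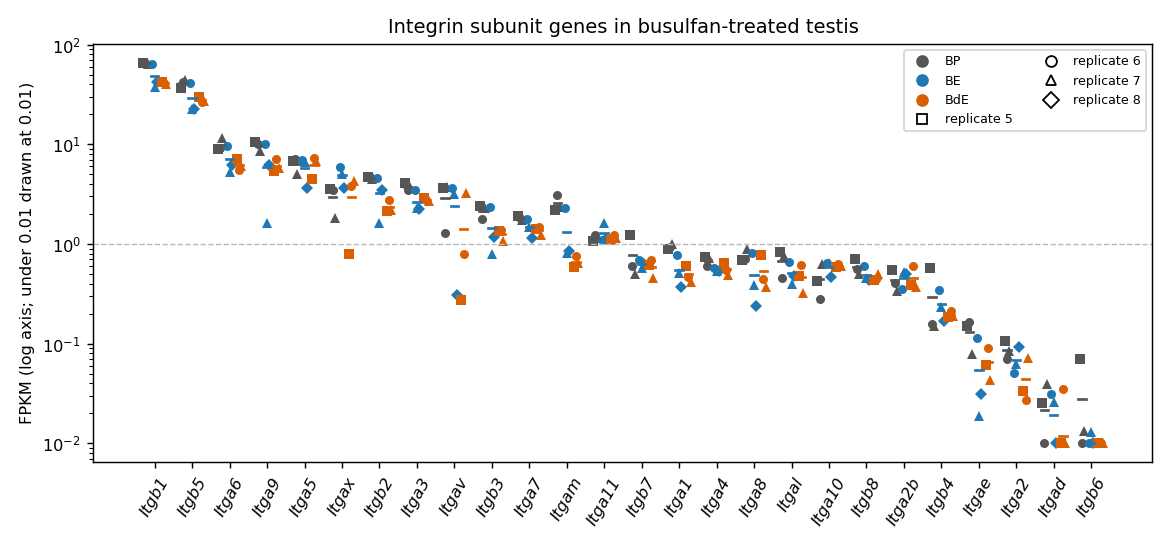
FPKM of the 26 integrin subunit genes on a log axis, in order of mean level, with a point for each library, the replicate number as the shape, a bar at the mean of each group (n = 3) and a dashed line at 1 FPKM. The Itgb1, Itgb5 and Itgam points of BP and BE 6 lie above the other 5 libraries, and those of Itgav and Itgax scatter within groups.

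Alpha subunits with other ligands did not share one pattern. Itga9, whose product binds tenascin and the adhesion molecule encoded by Vcam1, stood at 10.5, 10.2 and 8.6 FPKM in BP, 10.1, 1.61 and 6.2 in BE, and 5.36, 7.1 and 5.8 in BdE. BE 7 was far below every other library, at 983 counts where the others had 3269 to 6198. The log2 fold change between BdE and BP was -0.61 ± 0.12 (SE; edgeR adjusted p = 0.0222), and with the gene length correction the adjusted p was 0.0503. The call was also lost without BP 5, BP 6 or BdE 7. Gm2415, within the span of Itga9 on the opposite strand, had 679 to 867 counts in BP and BE 6 and 1332 to 1543 in the others. No source used here says whether strand was used in counting, so reads shared by the pair cannot be told apart. Itga5, the alpha subunit of the fibronectin receptor, was at 5.01 to 7.2 FPKM in BP, 3.65 to 6.97 in BE and 4.5 to 7.35 in BdE. Its groups overlapped, and its log2 fold change of 0.06 ± 0.22 (SE; edgeR adjusted p = 0.871) turned negative in limma on log2(FPKM+1), at -0.03.

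Itgav, the alpha subunit that pairs with the products of Itgb3 and Itgb5, took high and low values within each group. It was at 3.63, 1.28 and 3.7 FPKM in BP, 3.67, 3.19 and 0.306 in BE, and 0.271, 0.786 and 3.22 in BdE, from 233 to 3118 counts. No group stood apart for Itgav, which was not called. Itga11 lay between 1.07 and 1.62 FPKM in all 9 libraries and was not called either. The log2 fold changes of Itgav, Itga11, Itga7, Lama3 and Lama5 in the 6 libraries ran from -0.92 to 0.39, with adjusted p from 0.0582 to 0.691 (edgeR).

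Of the leukocyte integrin genes, Itgam and Itgb2 were lower in BdE, and Itgax, the neighbour of Itgam, scattered widely and was not called. Itgam and Itgax were not tested against each other. Itgam, the alpha subunit of the complement receptor of macrophages, monocytes and neutrophils, stood at 2.21, 3.13 and 2.35 FPKM in BP, 2.31, 0.813 and 0.85 in BE, and 0.581, 0.752 and 0.642 in BdE. The BP libraries and BE 6 lay above 2 FPKM and all others below 1, so that Itgam entered the test through the libraries in which it was high. Its counts were 725 to 1247 in BP and 233 to 290 in BdE, a 3.68-fold lower level in BdE (log2 fold change -1.88 ± 0.19 SE, edgeR adjusted p = 0.006). Itgb2, the beta subunit of Itgam, Itgax and Itgal products, was at 4.66, 4.68 and 4.53 FPKM in BP, 4.55, 1.62 and 3.48 in BE, and 2.14, 2.79 and 2.19 in BdE. Its BP values and BE 6 were nearly equal, and its log2 fold change was -0.89 ± 0.13 (SE; 1.85-fold lower; edgeR adjusted p = 0.0105). Itgax, the alpha subunit best known from dendritic cells, was at 3.57, 3.48 and 1.84 FPKM in BP, 5.99, 5.08 and 3.62 in BE, and 0.784, 3.8 and 4.31 in BdE. All BE values of Itgax lay above all its BP values, though BE 8 at 3.62 was close to BP 5 at 3.57. BE against BP was not called for Itgax in the 9 libraries (edgeR adjusted p = 0.451). Its BdE values overlapped both other groups, and BdE 5 was the lowest library. The Itgax log2 fold change, BdE minus BP, was 0.09 ± 0.61 (SE; edgeR adjusted p = 0.933). It turned negative in limma on log2(FPKM+1), at -0.12. Gm49368, whose span overlaps that of Itgam on the same strand, had 0 to 4 counts in BP and BE 6 and 33 to 202 in the others. It was thus higher where Itgam was lower. How reads in the overlap were assigned is not known, so the Itgam counts and fold change are uncertain.

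Itgam and Itgax lie next to each other on the plus strand of chromosome 7, at chr7:128062640-128118491 and chr7:128129547-128150657 (GRCm38, as in the table), 11055 bases apart, and Itgad follows 3718 bases after Itgax. Their RefSeq promoter windows (GRCm38.p6, plus strand, marked as above) are shown because Itgam was lower in BdE and its neighbour was not called. A missing call does not show that Itgax differed from Itgam. The Itgam window is chr7:128062390-128062689 and the Itgax window chr7:128129300-128129599.
Itgam: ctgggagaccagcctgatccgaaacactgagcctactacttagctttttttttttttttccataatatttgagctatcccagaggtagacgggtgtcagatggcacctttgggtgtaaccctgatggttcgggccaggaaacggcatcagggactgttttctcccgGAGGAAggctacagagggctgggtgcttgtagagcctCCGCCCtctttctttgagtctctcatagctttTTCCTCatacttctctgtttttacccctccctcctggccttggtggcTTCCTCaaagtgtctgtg
Itgax: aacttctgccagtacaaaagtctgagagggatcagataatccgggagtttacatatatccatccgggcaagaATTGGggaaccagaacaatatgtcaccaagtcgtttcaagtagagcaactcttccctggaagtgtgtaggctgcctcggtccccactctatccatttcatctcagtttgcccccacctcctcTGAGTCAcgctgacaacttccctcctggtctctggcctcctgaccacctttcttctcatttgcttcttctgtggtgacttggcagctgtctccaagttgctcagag

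The Itgam window held 3 GAGGAA, the core bound by ETS factors such as PU.1 of myeloid cells, and 1 GC box. The Itgax window held 1 CCAAT box and 1 AP-1 match and no GAGGAA. Over all windows 28.3% held at least 1 GAGGAA and 5.2% the AP-1 letters, and among the 26 windows of laminin and integrin genes 14 and 2 did.

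Marker lists of several cell types of the testis were summed in the same libraries. Each sum mostly follows its highest markers: in the myoid list, Acta2 alone was at 156 to 166 FPKM in BP. The 10 macrophage markers, which include Adgre1 and Csf1r, summed to 451 to 461 FPKM in BP and 469 in BE 6, and to 168 in BE 7, 252 in BE 8 and 220 to 308 in BdE. All 10 were detected above 1 FPKM, and 6 of the 10 were lower in BdE than in BP in the 6 libraries. In that fit, used for the lists below too, 11.9% of all tested genes were lower and 9.2% higher. Lower and higher here count genes at an adjusted p under 0.05 (edgeR). By sign alone 10 macrophage, 6 myoid and 3 Sertoli markers were lower. Adgre1 alone was at 5.55 to 6.38 FPKM in BP, 6.86 in BE 6 and 1.21 to 1.81 in the others, so that its BP libraries and BE 6 lay above the other 5, as for Itgam. The 5 neutrophil markers were all under 1 FPKM in every library and summed to at most 0.804 FPKM. The 6 myoid and smooth muscle markers summed to 227 to 239 FPKM in BP, 209, 120 and 125 in BE, and 138 to 186 in BdE (3 of 6 lower in BdE). The 5 fibroblast markers summed to 107 to 120, then 122, 56.8 and 53.6, and 62.7 to 87.0 FPKM in the same order (3 of 5 lower), and the 7 endothelial markers to 21.1 to 24.7, then 28.1, 13.9 and 11.6, and 12.9 to 15.7 FPKM (4 of 6 tested lower). The 8 Sertoli cell markers summed to 3230 to 3400 FPKM in BP, 3170 to 3310 in BE and 3190 to 3420 in BdE, with 0 lower and 2 higher in BdE. The 6 Leydig cell markers summed to 8430 to 9400 FPKM in BP, 9210, 7400 and 7710 in BE, and 8870 to 10500 in BdE, with 4 of 6 lower in BdE and a median log2 fold change of -0.98. Among them Cyp11a1, the first enzyme of steroid synthesis, was at 158 to 201 FPKM in BP, 233 in BE 6 and 32.7 to 123 in the other 5 libraries. The 7 spermatogonial markers summed to 51.2 to 55.6 FPKM in BP, 57.0, 36.3 and 34.3 in BE, and 37.0 to 46.9 in BdE (2 lower and 1 higher of 5 tested). None of the macrophage, myoid, fibroblast and endothelial lists has a marker under 1 FPKM in every library. The part of cell numbers, and that of gene length and mitochondrial share, in the laminin and integrin differences was not tested.

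BE against BP depends on BE 6. In all 9 libraries Lama2, Lamc3 and Lamb1 had log2 fold changes of -0.996 ± 0.53, -0.97 ± 0.50 and -0.95 ± 0.50 (SE), and none passed (edgeR adjusted p from 0.381 to 0.383). Without BE 6, 2 BE libraries and 8 in all remained. In that fit 11 of the 22 tested genes were lower in BE than in BP and 0 higher (edgeR, adjusted p under 0.05). Of all tested genes 16.2% were lower and 13.7% higher. BE 6 was left out because it lay with BP, a choice that the p-values of this fit ignore. The median log2 fold change of the 22 was -0.64, against 0.00 over all tested genes.

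The 11 included 5 laminin genes: Lama2 (log2 fold change -1.96 ± 0.31 SE), Lamb1 (-1.92 ± 0.19), Lamc3 (-1.92 ± 0.22), Lamc1 (-1.14 ± 0.22) and Lama4 (-0.79 ± 0.14). They also included 3 beta subunits, Itgb3 (-1.02 ± 0.23), Itgb5 (-0.74 ± 0.10) and Itgb1 (-0.58 ± 0.07), and 3 alpha subunits, Itgam (-1.51 ± 0.21), Itga6 (-0.67 ± 0.17) and Itga3 (-0.62 ± 0.10). Itga9, at -1.21 ± 0.49, and Itgb2, at -0.75 ± 0.30, did not pass (edgeR adjusted p = 0.101 and 0.103), and in both BE 7 was far below BE 8. Lamb2 at -0.26 ± 0.12 and Lama1 at 0.20 ± 0.13 did not pass either. With the gene length correction as well, 11 were lower (14.3% of all tested genes lower) and Lama1 was higher, at 0.38 ± 0.11 (SE; edgeR adjusted p = 0.0458), in a fit added after the data were seen. BdE against BP shares the BP libraries with this comparison: in the same 8-library model 11 of the 22 were lower in BdE (12.1% of all tested genes).

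**Figure D4:**
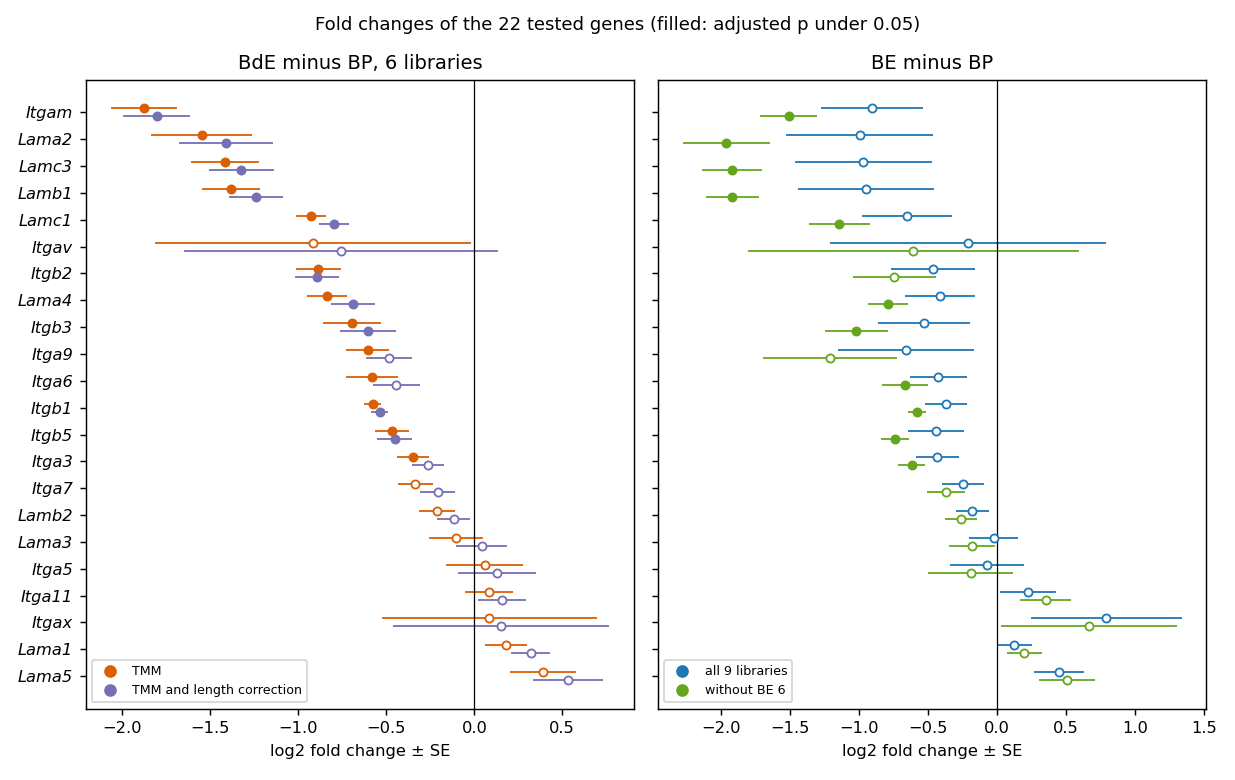
Log2 fold change ± SE (edgeR) of the 22 tested genes, BdE minus BP in 6 libraries with and without the gene length correction on the left, and BE minus BP with and without BE 6 on the right, with filled points for an adjusted p under 0.05. On the left 13 points without the correction and 10 with it are filled, and on the right 0 with all libraries and 11 without BE 6.

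The 2 kinds of exosome were not told apart by these genes. BdE and BE overlapped in FPKM for 21 of the 22, where 5.08% of all tested genes did not overlap. The exception was Itgam, whose BdE values of 0.581 to 0.752 FPKM lay just below BE 7 at 0.813 and BE 8 at 0.85. In the 9-library model Itgam had a log2 fold change, BdE minus BE, of -0.97 ± 0.37 (SE), with an unadjusted p of 0.0298 and an adjusted p of 0.999 (edgeR). The 22 ranged from -0.97 to 0.13 with a median of -0.16. Without BE 6 the range was -0.58 to 0.60 with a median of 0.06, and again 0 of the 22 passed. Without it 10 of the 17 genes named by rule changed sign: Lamb1, Lamc3 and Lama2 were at -0.43, -0.45 and -0.55 with all 9 libraries. In the fit without BE 6, Lamb1 was at 0.54 ± 0.18, Lamc3 at 0.50 ± 0.20, Lama2 at 0.41 ± 0.30 and Itgb1 at 0.01 ± 0.06 (SE), with the smallest adjusted p of the 22 at 0.63. A difference that misses the threshold does not show that the preparations act alike.

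Of the 15 genes that were not tested, 14 are described, which stayed at or under 1.24 FPKM and each reached 1 FPKM in at most 1 library. They were the laminin beta chain gene Lamb3, the alpha subunit genes Itga1, Itga2, Itga2b, Itga4, Itga8, Itga10, Itgad, Itgae and Itgal, and the beta subunit genes Itgb4, Itgb6, Itgb7 and Itgb8. Itga1, a collagen receptor subunit, was highest of the alpha subunits left out, at 0.897, 0.926 and 1.01 FPKM in BP, 0.778, 0.511 and 0.372 in BE, and 0.607, 0.47 and 0.412 in BdE. With no filter on low values 11 of all 37 were lower in BdE in the 6 libraries (3.48% of all genes then tested), and Itga1 was among them (log2 fold change -0.87 ± 0.17 SE, edgeR adjusted p = 0.0369). The span of Itga1 overlaps other genes, among them Pelo and Gm49395 on the same strand, so its counts are uncertain. Itgad and Itgb6 had 0 to 14 and 0 to 33 counts.

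Genes that act beside laminins and integrins were taken from 4 lists, described here in the 6 BP and BdE libraries. In these libraries 11.9% of all tested genes were lower and 9.2% higher, with a median log2 fold change of 0.01. Counts of lower and higher genes in the lists are those at an adjusted p under 0.05 (edgeR). Of 21 tested basement membrane partners 9 were lower in BdE and 0 higher, with a median log2 fold change of -0.52. Nid1 and Nid2, the nidogens, had log2 fold changes of -0.81 ± 0.09 and -0.60 ± 0.09 (SE). Col4a2, a type IV collagen chain, was at -0.95 ± 0.07 and Papln, an extracellular matrix glycoprotein, at -1.32 ± 0.23. Dag1, the dystroglycan gene, was at 53.3 ± 2.06 FPKM in BP and 24.6 ± 0.697 in BdE (SD, n = 3; log2 fold change -1.04 ± 0.06 SE, edgeR adjusted p = 0.00346). Of the 12 tested laminin receptors other than integrins 5 were lower and 0 higher, with a median of -0.51. These included the syndecans Sdc1 (-1.55 ± 0.20) and Sdc3 (-0.94 ± 0.15) and Sspn, a partner of the dystroglycan complex (-1.03 ± 0.15).

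Inside the cell, integrins are switched on and tied to actin by adaptor proteins. Of 32 tested activators and adaptors 8 were lower and 2 higher, beside the 11.9% and 9.2% of all tested genes, with a median of -0.24. Vcl (vinculin) was lower, at -0.78 ± 0.14 (SE), as were Flna (filamin, which binds integrin tails) at -0.86 ± 0.14 and Parva (parvin, a partner of integrin-linked kinase) at -0.65 ± 0.08. Fermt3, the kindlin of blood cells, was at -0.27 ± 0.24 in this comparison (edgeR adjusted p = 0.448) and at -1.62 ± 0.29 in BE against BP without BE 6 (edgeR adjusted p = 0.00768). Of 22 tested ligands other than laminins 8 were lower and 0 higher, with a median of -0.39. Vcam1, a cell-surface ligand of integrins on leukocytes, was at 74.7 ± 1.93 FPKM in BP and 45.2 ± 6.49 in BdE (SD, n = 3; log2 fold change -0.65 ± 0.11 SE). The collagen genes Col3a1 and Col1a2 were lower, at -0.92 ± 0.07 and -0.73 ± 0.12 (SE), and Fbn1 (fibrillin) was at -0.99 ± 0.11. With the gene length correction in the 6 libraries the 4 lists had, in order, 8 of 21, 5 of 12, 4 of 32 and 6 of 22 lower. Higher were 1, 0, 1 and 0 genes of the lists, and 9.66% of all tested genes were lower. The median of the activators and adaptors was then -0.14. In BE against BP without BE 6 the same 4 lists had 9 of 21, 6 of 12, 10 of 32 and 10 of 22 genes lower and 0, 0, 2 and 1 higher, beside 16.2% and 13.7% of all tested genes. In all 9 libraries 0 genes of the 4 lists passed in any comparison.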

How the data were processed

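RNA from 9 testis libraries was described by a deposited table with a count and an FPKM value per gene and library. The deposited counts are whole numbers per gene, in columns that the file headers name as counts. Columns headed FPKM hold the authors' own values, a measure that by definition scales to gene length and library total. In those values, 0.0001 stands where the count is 0. Per the submitters' processing notes, Bowtie 0.12.2 and mm8 were used, with no role named, but 93.8% of the 55401 genes have the start and end of GRCm38 in GENCODE M21. One gene of the rule is not reported here. Neither counter nor strand option is given in the sources used here.

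Genes that reached 1 FPKM in 3 or more of the 9 libraries (14570) were tested with edgeR 4.0.16 (quasi-likelihood, TMM, R 4.3.3), two-sided, with Benjamini-Hochberg adjustment over those genes and 0.05 as threshold. A change is TMM-scaled, and a level in FPKM is not. Libraries were grouped by their titles. DESeq2 1.42.0, limma 3.58.1 (log2(FPKM+1), log2(FPKM+0.1), quantile normalization), RLE size factors, other filters, a per-library lowess correction on gene length, a replicate block and leaving out each library were alternatives. The fit was tested on simulated data, drawn with less spread than these libraries and with no outlying library or length trend. Fold changes are printed for genes past the threshold in the 9-library, 6-library or BE 6-free fits and for the 4 highest of each class, and from each list up to 4 past the threshold. Itga1, Itga7 and the range over other genes are outside that rule. The genes and lists were chosen with earlier results of these data known.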

Additional observations from a re-analysis of the deposited data

How the results depend on the processing

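The tested genes had from 233 to 41030 counts in a library. With 3 libraries a group, leaving out BE 6 or all of BE moved more calls than any scaling or filter tried, and both choices were made with earlier results known. The counts of laminin and integrin genes called lower in BdE than in BP were 13 in the 6 libraries, 14 with DESeq2, 12 with quantile normalization, 12 with the filterByExpr filter, 11 with no filter and 10 with the gene length correction, and 7 to 11 with a library left out. In the same order, genes of any kind called in either direction were 3078, 4479, 3208, 2392, 1719 and 2650. With a library left out they were 743 to 3140. A change of filter also changes how many genes are tested. No label pairs the replicate numbers: residuals of same-numbered libraries correlated at -0.129 to 0.233 (7 pairs) and of others at -0.151 to 0.192 (20 pairs). With the replicate block, alone or with the gene length correction, 0 genes of any kind and 0 of the 22 were called in each comparison, and in the 6 libraries the block ended all 13 calls (edgeR adjusted p of the 13 from 0.0527 to 0.111).

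In the 9-library model the 22 gave 0 calls for BE against BP in every alternative except the 2 without BE 6 (11, and 12 with the gene length correction). For BdE against BP they gave 2 with DESeq2, 13 with the 6 libraries, 11 without BE 6 and 8 with the gene length correction without BE 6. Over all genes, BE against BP gave 2 calls, 60 with DESeq2, 1 with limma on either FPKM scale, 0 with the 6 libraries of the pair, 0 to 4351 with a library left out and 4075 with the length correction without BE 6. BdE against BP gave 1, then 4 with quantile normalization, 2 with the length correction, the filterByExpr filter or limma on FPKM, 3 with no filter, 389 with DESeq2, 3078 in the 6 libraries, 0 to 3257 with a library left out and 2852 with the length correction without BE 6. BdE against BE gave 1, then 2 with the filterByExpr filter or no filter, 25 with DESeq2, 0 with the 6 libraries of the pair, 0 to 6 with a library left out and 5 with the length correction without BE 6. The 6-library count was 3078, 1719 with no filter and 743 to 3140 with a library left out.

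Among the 17 genes whose fold changes the naming rule prints, the sign of BE against BP turned for Itga5 only. That of BdE against BP turned for Itga5 and Itgax, neither of them called. That of BdE against BE turned for 10 of the 17 without BE 6. For BE against BP, Itga5 was at 0.0719 with the replicate block, 0.1103 with the block and length correction, and between -0.2137 and 0.1563 with a library left out. For BdE against BP, Itga5 was at -0.0297 and -0.036 in limma on log2(FPKM+1) and log2(FPKM+0.1), and Itgax at -0.119 and -0.2495, in both the 9-library and the 6-library fits. In the 9 and the 6 libraries Itgax was at -0.144 and -0.1456 with quantile normalization, -0.1543 and -0.1522 with the replicate block, and -0.094 and -0.0863 with the block and length correction. With a library left out, Itga5 ran from -0.0734 to 0.2488 in the 9 and from -0.0741 to 0.2366 in the 6 libraries, and Itgax from -0.3083 to 0.5387 and from -0.319 to 0.5255. The cause was not tested.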
